A study of Mus musculus with 6 samples.

Results

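Expression of 10 imprinted genes known for roles in growth or in the formation of mesenchymal cells was compared between osteoblast cultures treated with corticosterone and with vehicle. The genes were listed by name, and earlier results of these data were known when the list was made. They were *H19*, *Meg3*, *Dlk1*, *Mest*, *Peg3*, *Peg10*, *Plagl1*, *Grb10*, *Ndn* and *Sgce*. Of these, 7 were matched by their mouse Ensembl identifier among 24016 genes with values, while *Meg3*, *Dlk1* and *Ndn* were not analysed here. The 7 genes analysed lie on chromosomes 6, 7, 10 and 11. The measurements do not separate the parental copies, so every level below is a total over both copies, and whether imprinting itself was kept or lost was not measured.

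Genomic imprinting is the silencing of one parental copy of a gene by marks, chiefly DNA methylation at CpG pairs, that are laid down in the egg or the sperm. Many imprinted genes act on fetal and postnatal growth, and several belong to a group that is active in growing tissues and declines as these mature. Imprinted genes lie in clusters, in which one control region can govern several neighbours.

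The cells were MC3T3-E1 subclone 4, a wild-type preosteoblast line from mouse calvaria (skull bone) that is 1 clone, so separate cultures share 1 genetic source. All cultures were differentiated for 6 days with ascorbic acid (50 µg/ml) together with β-glycerophosphate (10 mM), and both groups were handled in the presence of 10 nM calcitriol, the active form of vitamin D, as the labels describe the treatment. After differentiation, for 24 h, 3 cultures received vehicle and 3 received 100 nM corticosterone, the main glucocorticoid of mice. Each of the 6 cultures gave 1 RNA-seq library. Values are normalised counts, that is reads per gene divided by 1 size factor for each library, and they are not scaled to gene length.

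The libraries held 16020401 to 25638645 reads on genes, and all 3 corticosterone libraries were shallower than the vehicle libraries. The floor was set at 3 reads, which correspond to a normalised count of 2.32 to 3.84 according to the library and account for counting error only. Of 9 osteoblast markers, all had values, 8 were lower with corticosterone and 1 was higher in limma at an adjusted p under 0.05. Over all genes, 8.20% were lower and 8.49% higher by that rule. The summed normalised count of the markers, mostly *Col1a1* and *Col1a2*, was 1485500 to 1536600 with vehicle and 1286800 to 1345600 with corticosterone. The part of these markers in the results below was not tested. *Runx2* and *Sp7*, the transcription factors that define the lineage, had log2 fold changes of -1.16 and -1.34. *Col1a1* was at -0.15, and *Spp1*, the marker that was higher, at 0.23. Of 5 chondrocyte markers 3 had values, with a sum of 1145 to 1455 with vehicle and 701 to 853 with corticosterone, nearly all of it *Col2a1*, a cartilage collagen. Of 5 adipocyte and 5 muscle markers, 1 each had values, *Plin1* with at most 2 reads and *Ckm* with at most 4 in a library. Of 5 blood cell markers 2 had values, summing to 30.0 to 34.0 against 29.4 to 32.0, and of 5 endothelial markers 3 did, summing to 22.8 to 47.8 against 39.8 to 53.7. The established glucocorticoid targets *Tsc22d3*, *Fkbp5*, *Sgk1* and *Per1* were higher with corticosterone by 1.49, 2.46, 2.75 and 2.02 on the log2 scale, with no overlap between the groups. In RNA from whole cultures, fewer cells of a type and less RNA per cell cannot be told apart.

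The sequences at the starts of *Mest* are shown first because it had the largest change among the 6 genes with a mean normalised count of at least 10. *Mest* (mesoderm-specific transcript, ENSMUSG00000051855), which encodes an enzyme-like protein of the endoplasmic reticulum and is expressed from the paternal copy, spans chr6:30723547-30748465 on the plus strand of mm10 (GRCm38), with 11 annotated transcripts in GENCODE. The promoter sequences come from RefSeq on GRCm38.p6 and cover the 250 bases before an annotated start, written 5′ to 3′ with each CpG, the pair that can be methylated, in capitals. The upper sequence lies at chr6:30733256-30733505 and the lower at chr6:30737800-30738049, both on the plus strand, and the lower ends at the base before the start of the transcript Mest-211.
Mest upstream start: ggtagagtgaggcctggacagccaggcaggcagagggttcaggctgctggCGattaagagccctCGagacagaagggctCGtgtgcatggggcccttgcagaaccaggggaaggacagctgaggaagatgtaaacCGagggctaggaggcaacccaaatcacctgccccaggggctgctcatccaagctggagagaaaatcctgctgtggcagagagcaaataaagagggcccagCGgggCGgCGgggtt
Mest downstream start: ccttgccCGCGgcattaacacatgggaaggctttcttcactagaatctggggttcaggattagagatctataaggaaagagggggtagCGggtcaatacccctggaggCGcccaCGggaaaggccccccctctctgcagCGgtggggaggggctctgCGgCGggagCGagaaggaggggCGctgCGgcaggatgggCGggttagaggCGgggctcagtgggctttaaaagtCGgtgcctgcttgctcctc
The downstream window holds 14 CpG pairs, a number reached or passed by 29.4% of 32851 promoter windows of the same length in RefSeq. The upstream window holds 7, which 46.3% of windows reach, and the median over all windows is 6. The letters TGTTCT, one of the paired half-sites to which the glucocorticoid receptor binds, were searched on both strands and matched neither window, while 16.1% of all windows hold them. They were also absent from every window of the other listed genes with a promoter entry, *Plagl1* and *Grb10* among them. A search for letters in these windows says nothing about binding of the receptor elsewhere. The counts used here are summed over a whole gene, so the share of each *Mest* start was not measured.

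*Mest* is also the host of miR-335, a microRNA known to act in mesenchymal cells, and its mature sequences are shown because they share the host's transcription unit. With the seed (bases 2 to 8) in capitals, they read as follows in RefSeq.
miR-335-5p: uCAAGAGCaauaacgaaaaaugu
miR-335-3p: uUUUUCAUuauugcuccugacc
The first lies at chr6:30741314-30741336 and the second at chr6:30741354-30741375 on the plus strand of GRCm38.p6, within intron 2 of the 12-exon transcript Mest-211. The hairpin gene *Mir335* had between 0 and 3 reads in every library, at or under the floor, so no change of the microRNA could be read from these libraries. The seeds of the arms differ from each other.

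**Figure D1:**
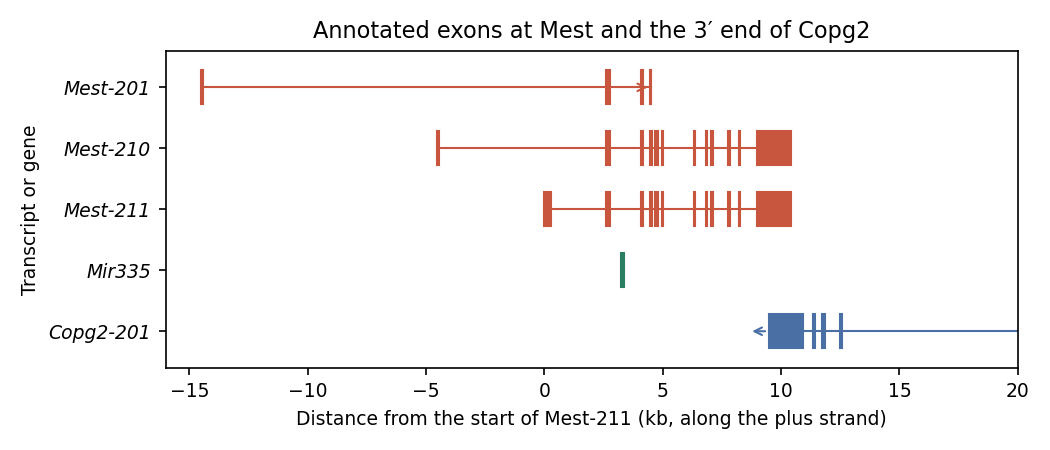
Annotated exons of 3 *Mest* transcripts, of *Mir335* and of the 3′ end of *Copg2*, with distance from the start of Mest-211 in kb along the plus strand on the x axis. Boxes are exons, lines introns and arrowheads the direction of transcription, and the last exon of Mest-211 overlaps the last exon of *Copg2*, which runs the other way.

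*Mest* mRNA was lower with corticosterone in every culture. Its normalised counts were 4288, 5820 and 5295 with vehicle, against 587, 718 and 720 with corticosterone. The highest corticosterone culture therefore lay far under the lowest vehicle culture, and the spread within either group was small beside the gap. The vehicle mean of 5134 ± 779 stood against a corticosterone mean of 675 ± 76.4 (SD, n = 3 each), 7.61-fold lower. On the log2 scale the difference was -2.92 (SE 0.09, 95% interval -3.12 to -2.72) with an adjusted p of 2.66e-12 in limma over all genes. A two-sided exact permutation test gave p = 0.1, the smallest value that 3 against 3 allows. Among the 13880 genes whose mean normalised count reached 10, 17 had a lower log2 fold change than *Mest*. By p, *Mest* ranked at position 16 of 24016 genes. Between 548 and 7541 reads stood behind each value, so counting error was small beside the difference. Across 20 alternative settings, the log2 difference ranged from -3.05 to -2.82, with an adjusted p under 0.05 in all 20. In limma the adjusted p was 0.0026 without the variance trend and 0.00031 with a robust prior variance. On leaving out each library it was 0.0011 to 0.0026, so its size depended on the setting. The setting without a filter is among the 20 and equals the reported fit.

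The last exon of *Mest* overlaps the last exon of *Copg2*, a coat-protein gene transcribed towards it from the opposite strand. The overlap takes 912 bases, or 23.1% of all *Mest* exon bases, and 909 bases, or 35.5%, of the 2561-base transcript Mest-211. Of all 31-base stretches of *Mest* transcripts, 22.0% also occur in *Copg2*. The NEBNext Ultra RNA kit was used and the use of strand in counting is not given in the sources used here, so reads from the shared exon cannot be assigned with certainty. *Copg2* (ENSMUSG00000025607) had normalised counts of 2125, 1739 and 1977 with vehicle and 1613, 1628 and 1850 with corticosterone. The groups overlapped, and the log2 difference was -0.20 (SE 0.07, adjusted p = 0.0685 in limma). *Copg2* did not pass the test, although it did so under 10 of the 20 alternatives.

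**Figure D2:**
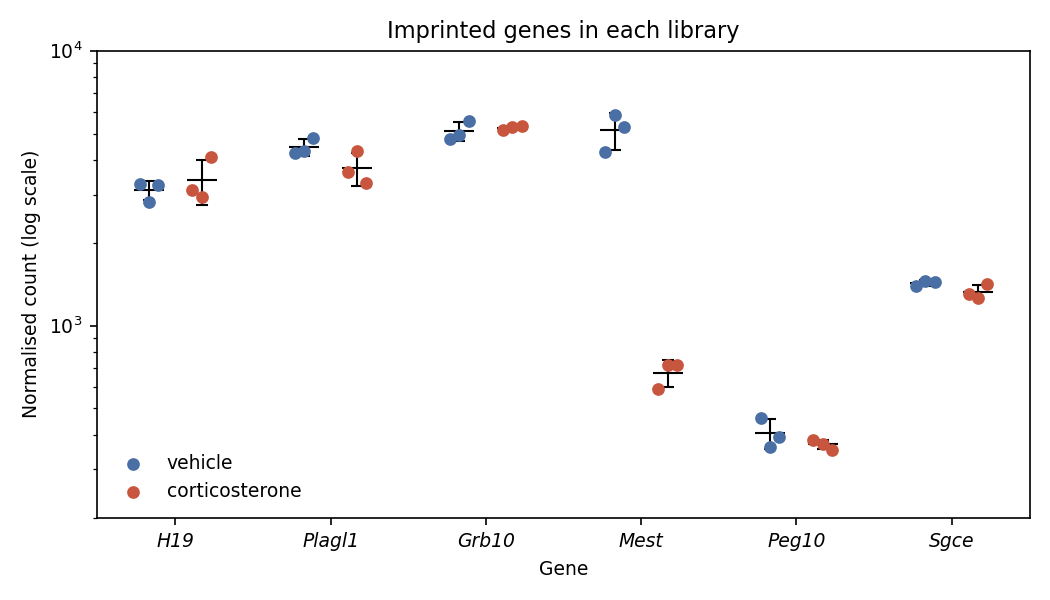
Normalised counts on a log axis of the 6 imprinted genes whose mean reached 10, with vehicle cultures in blue and corticosterone cultures in red. Points are single libraries and the bars are the mean ± SD of 3. For *Mest* the groups are widely apart, at 4288 to 5820 against 587 to 720, and for the other 5 genes they overlap.

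Over the 7 genes, the fit placed 2 lower (28.6%) and 0 higher at an adjusted p under 0.05. Over all genes tested, 8.20% were lower and 8.49% were higher by the same rule. With the further requirement of a log2 fold change under -1, *Mest* alone remained, and 1.40% of all genes met that rule. The groups of 3 did not overlap for 1 of the 7 genes (14.3%), against 29.6% of all genes. The median log2 difference was -0.13 for the 7 genes, *Peg3* with at most 1 read included, and -0.01 for all genes. Among genes with a mean normalised count of at least 10, it was -0.12 for the 6 listed and -0.005 for all. At an unadjusted p under 0.05, limma again placed 0 of the 7 genes higher, and edgeR and DESeq2 placed 0 higher at an adjusted p under 0.05. With 7 genes, these shares are a description, and nothing particular to the group is read from them.

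*Plagl1* (ENSMUSG00000019817, chr10:13060504-13131694, plus strand), a zinc-finger transcription factor that restrains the cell cycle and is known to regulate other imprinted genes, was the other member to pass the test. Its normalised counts were 4246, 4321 and 4807 with vehicle and 3623, 4306 and 3290 with corticosterone. The groups overlapped, since the second corticosterone culture lay above the lowest vehicle culture. The vehicle mean was 4458 ± 305 and the corticosterone mean 3740 ± 518 (SD, n = 3 in both groups), with a log2 difference of -0.26 (SE 0.07, 95% interval -0.42 to -0.10, adjusted p = 0.0233 in limma). The exact permutation test gave p = 0.2. The call held under 10 of the 20 alternatives, whose adjusted p ran from 0.00465 to 0.399, while the log2 difference stayed between -0.37 and -0.17. The call was lost without vehicle 1, 2 or 3 and without corticosterone 1 or 3.

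*Grb10* (ENSMUSG00000020176, chr11:11930508-12038683, minus strand) encodes an adaptor protein that binds the insulin and IGF1 receptors and restrains growth signalling. Its normalised counts were 4787, 4940 and 5574 with vehicle and 5167, 5261 and 5326 with corticosterone. All 3 corticosterone values lay inside the range of the vehicle values. The log2 difference was 0.05 (SE 0.05, 95% interval -0.06 to 0.15, adjusted p = 0.666 in limma) and the exact permutation p was 0.6. The sign was not stable, at -0.02 with upper-quartile scaling and -0.05 with quantile normalization.

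*H19* (ENSMUSG00000000031, chr7:142575529-142578143, minus strand) is a long noncoding RNA from the maternal copy that restrains growth and is the precursor of miR-675. Its normalised counts were 3263, 2818 and 3247 with vehicle and 3109, 2945 and 4105 with corticosterone. The third corticosterone culture was the highest of all 6, and the other two lay within the vehicle range. The log2 difference was 0.11 (SE 0.09, 95% interval -0.08 to 0.31, adjusted p = 0.517 in limma), with an exact permutation p of 0.7. Without that culture it was -0.04. Of the 31-base stretches of *H19* transcripts, 5.27% also occur in *Mir675* and in annotated RNAs within *H19*.

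*Sgce* and *Peg10* share one promoter region, where their annotated ends are 98 bases apart on opposite strands of chromosome 6, and both are expressed from the paternal copy. *Sgce* (ENSMUSG00000004631, chr6:4674350-4747207, minus strand) encodes a membrane protein of the sarcoglycan family. Its normalised counts were 1393, 1460 and 1438 with vehicle and 1308, 1265 and 1414 with corticosterone. The groups overlapped through the third corticosterone culture, and the log2 difference was -0.11 (SE 0.05, 95% interval -0.22 to 0.01, adjusted p = 0.226 in limma). *Sgce* passed the test under 1 of 20 alternatives, upper-quartile scaling, with an adjusted p of 0.0482 in limma.

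*Peg10* (ENSMUSG00000092035, chr6:4747306-4760517, plus strand), derived from a retrotransposon and known to be needed for the placenta, had normalised counts of 461, 361 and 395 with vehicle and 383, 372 and 354 with corticosterone. The third corticosterone culture lay under all vehicle cultures, and the other two lay within the vehicle range. The log2 difference was -0.13 (SE 0.09, 95% interval -0.32 to 0.06, adjusted p = 0.419 in limma). The log2 ratio of *Peg10* to *Sgce* was -1.82 ± 0.21 with vehicle and -1.84 ± 0.13 with corticosterone (SD, n = 3 each), a difference of -0.02 with a two-sided exact permutation p of 1. Across the alternatives this difference ran from -0.12 to 0.10, values within the spread between cultures.

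*Peg3* (ENSMUSG00000002265, chr7:6703892-6730431, minus strand), which encodes a zinc-finger protein of growth and maternal behaviour, was at or under the floor in every library. It had 0, 1 and 1 reads with vehicle and 0 reads in each corticosterone library. Both groups therefore lay under the 3 reads that a count of 0 allows, no fold change is given, and a difference was not detectable at this depth.

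**Figure D3:**
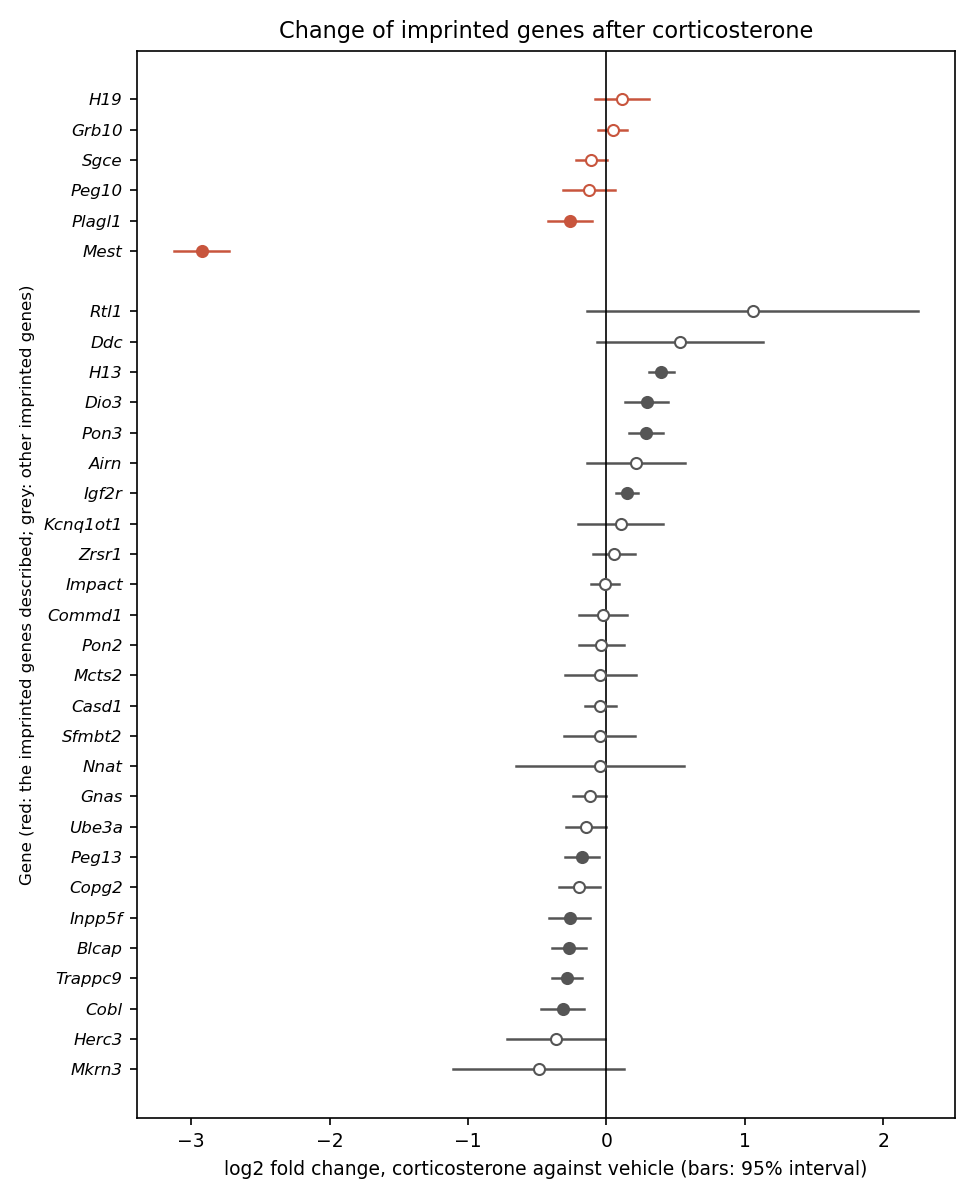
Log2 fold change of corticosterone against vehicle with its 95% interval from limma, for the 6 imprinted genes described (red) and the 26 other imprinted genes (grey) with a mean normalised count of at least 10. Filled points passed an adjusted p of 0.05. *Mest*, at -2.92, stands far from the other genes, whose passing values lie between -0.31 and 0.40.

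Levels of different genes can be compared only per length, so each normalised count was divided by the exon length in kb of the transcripts in the GENCODE basic set, 2776 bases for *Mest*. On this length the order with vehicle was *Mest* at 1850 ± 280.5 per kb, followed by *H19* at 1360, *Grb10* at 994, *Plagl1* at 828, *Sgce* at 762, *Peg10* at 60.9 and *Peg3* at 0.0693. No neighbours in this order overlapped between libraries. With corticosterone the order opened with *H19* at 1481 per kb, *Grb10* at 1024, *Sgce* at 708 and *Plagl1* at 695, and *Mest* followed in the fifth place at 243 ± 27.5. *Sgce* and *Plagl1* overlapped there, with *Sgce* above in 2 of 3 libraries, and the remaining neighbours did not. The share of *Mest* in the summed normalised count of the 7 genes was 23.3%, 29.5% and 25.5% with vehicle, and it was 4.14%, 4.83% and 4.74% with corticosterone. This share uses no annotated length, although longer transcripts give more reads, and it was low in all 3 corticosterone cultures. The order by level does depend on the length chosen. Over the exons of all annotated transcripts, 3945 bases for *Mest* and 2460 for *H19*, the vehicle levels of these genes were 1301 ± 197 and 1264 ± 103 per kb, and their ranges overlapped, with *Mest* above in 2 of 3 libraries. *Plagl1* at 570 and *Grb10* at 561 per kb changed places with vehicle on that length, and their ranges overlapped, with *Plagl1* above in all 3 libraries. *Sgce* was at 135 there. With corticosterone on that length, *H19* was at 1377 per kb and *Mest* in the fourth place at 171, with *Sgce* below it at 125.

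**Figure D4:**
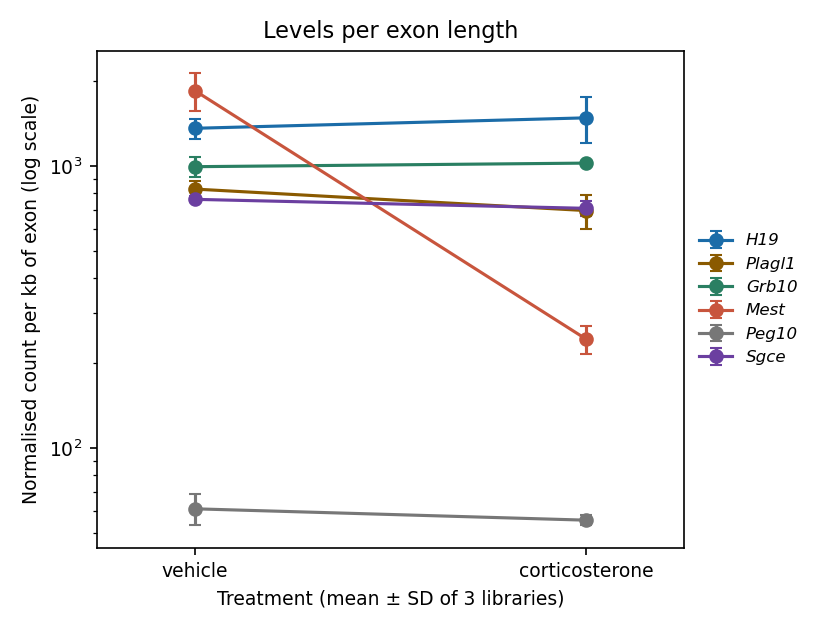
Normalised count per kb of exon on a log axis for 6 imprinted genes in the vehicle and corticosterone groups. Points and bars are the mean ± SD of 3 libraries and lines join the groups, with exon length taken from the basic transcript set. *Mest* goes from 1850 to 243 while the other 5 lines move far less.

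For the surroundings of these genes, a list of 51 other imprinted genes was read from the same fit, and 37 of them had values, 26 with a mean normalised count of at least 10. Of the 37 genes, 4 were higher (10.8%) and 5 lower (13.5%) at an adjusted p under 0.05 in limma. The shares over all genes were 8.49% higher and 8.20% lower. For 11 of the 37 (29.7%) the groups did not overlap, and the median log2 difference of the 37 was -0.04. The share that did not overlap is close to the 29.6% of all genes. None of the 37 passed a log2 difference of 1 in either direction together with an adjusted p under 0.05. By that rule 331 of all 24016 genes were higher and 337 lower.

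The genes with higher levels were *H13*, a peptidase of the endoplasmic reticulum, at 0.40 on the log2 scale, *Dio3* at 0.29, *Pon3* at 0.29 and *Igf2r* at 0.15. *Dio3* encodes a deiodinase that inactivates thyroid hormone, *Pon3* a lactonase, and *Igf2r* the receptor that clears IGF2. For *H13*, the normalised counts of 3505, 3371 and 3623 with vehicle all lay under those of 4668, 4574 and 4595 with corticosterone, and the gene passed under all 20 alternatives. The groups overlapped for *Dio3*, at 2139, 1880 and 1735 with vehicle and 2360, 2129 and 2545 with corticosterone. *Dio3* had an adjusted p of 0.0093 in limma, and its call was lost without any 1 of the 6 libraries. For *Igf2r*, the difference was -0.00097 under quantile normalization, so its direction depended on the scaling.

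The genes with lower levels were *Cobl*, an actin nucleator, at -0.31 on the log2 scale, *Trappc9* at -0.29, *Blcap* at -0.27, *Inpp5f* at -0.26 and *Peg13* at -0.18. *Trappc9* takes part in vesicle transport, *Inpp5f* is a phosphoinositide phosphatase, and *Peg13* is a noncoding RNA that lies within *Trappc9* on the same strand, so reads of these last 2 may be shared. The groups did not overlap for any of the 5. *Trappc9* passed under 19 of the 20 alternatives, *Inpp5f* under 16, *Blcap* under 15, *Cobl* under 14 and *Peg13* under 12. The call was lost without vehicle 1 for all but *Trappc9*, and also without vehicle 2 or 3 or corticosterone 1 or 3 for *Cobl*, without vehicle 3 or corticosterone 1 or 2 for *Blcap*, without corticosterone 3 for *Inpp5f*, and without vehicle 3 or any 1 corticosterone library for *Peg13*.

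By region, 3 of the 20 neighbours with values passed the test in either direction (15.0%), close to the 16.7% of all genes. Several of the 20 had only a few reads, as given below, so a change of these could hardly be seen. Near *Mest*, *Copg2* was the only one of 2 listed neighbours with values. In the *Peg10* and *Sgce* region, 5 of 6 had values and *Pon3* alone passed the test, while *Casd1* and *Pon2* had log2 differences of -0.04 each, the latter 0.02 without corticosterone 3. *Asb4* and *Calcr* of that region had at most 9 and 6 reads in a library. Beside *Grb10*, *Cobl* was lower and *Ddc*, which encodes the enzyme that makes dopamine and serotonin, was at 0.53 with an adjusted p of 0.263 in limma.

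In the *H19* region, 5 of 8 neighbours had values and none passed in limma. *Ascl2* and *Kcnq1* had at most 5 and 1 reads in a library. *Igf2*, the fetal growth factor that lies next to *H19*, had 0 to 3 reads in each library, and *Cdkn1c*, an inhibitor of the cell cycle, had 0 to 6, while *H19* had 2666 to 4024. *Kcnq1ot1*, a noncoding RNA of the adjoining domain, had 159 to 380 reads and a log2 difference of 0.10 with an adjusted p of 0.708 in limma. Of the 4 genes listed beside *Dlk1* and *Meg3*, all had values, and *Dio3* was the only one well above the floor. The noncoding RNAs *Rian* and *Mirg* of that region had at most 3 and 5 reads in a library, and *Rtl1*, derived from a retrotransposon, had 4 to 14. None of the 3 genes with values near *Ndn*, of 6 listed, passed, and *Peg12* among them had at most 11 reads in a library. None of the 3 listed beside *Peg3* was analysed here.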

How the data were processed

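RNA-seq was done on 6 libraries, 3 per group, of MC3T3-E1 subclone 4 osteoblasts. The growth protocol gives passages 4 to 10 and the batch label passages 6 to 12 for all. The labels do not tie a library to a single passage, so passage could not be tested. Libraries were made with the NEBNext Ultra RNA kit, the submitters' processing notes name mm10, and the study used DESeq2. The aligner, counting program, annotation and strand setting are not given in the sources used here.

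The values deposited are a signal for each gene and library, under the name FPKM. Within a library, all values are multiples of a single step that does not depend on gene length, and they are therefore read counts after division by 1 size factor per library. Whole reads were recovered for 100% of values within a tolerance of 0.01, which was widened in proportion to the count for large counts. The check therefore has little force for the largest counts. All 24016 genes had values, 23983 of them with a symbol. Positions, exon lengths and overlaps came from GENCODE M21 (GRCm38), and sequences from RefSeq. Of the 10 genes chosen, 7 have an entry in the promoter table.

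Groups were compared by limma 3.58.1 (R 4.3.3), with a trend in the prior variance, on log2(value + 0.1), with Benjamini-Hochberg adjustment over all 24016 genes. A mean of at least 0.1 was required, which removed no gene, since the lowest mean was 0.257. Fitted fold changes of genes near 0 depend on the pseudocount. Passed means an adjusted p under 0.05, and the study's threshold also asks for an absolute log2 fold change over 1. A two-sided exact permutation test was added for single genes and for the ratio of 2 genes, which cannot go below p = 0.1 with 3 libraries a group. The design had assumed a normalised table, with count tests as alternatives, and was kept. The genes, the lists and the rule were chosen with earlier results of these data known. The rule names all 10 genes, the other imprinted genes near one of them or past the threshold, and 4 glucocorticoid targets.

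Alternatives were pseudocounts of 1 and 0.01, a mean of at least 10, no filter, limma without the trend or with a robust prior, scaling by the upper quartile, to the same total or by quantiles, the replicate number as a block, edgeR 4.0.16 (quasi-likelihood, TMM, filterByExpr) and DESeq2 1.42.0 on recovered reads, each with and without the block, and leaving out each library. The setting without a filter equals the reported fit, since the filter removed no gene, and is no separate check where the alternatives are counted. Exon lengths over all annotated transcripts were added after seeing the data. The fits were tested on simulated data.

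Replicate libraries of a group differed beyond sampling noise, with a chi-square per degree of freedom of at least 3.38, so each was counted as 1 sample. Same-numbered libraries did not deviate together, with correlations from -0.04 to 0.02 over 13880 genes, so the numbers were not taken as pairs. The study calls the replicates biological, while the labels do not say whether libraries came from separate experiments. The limma p-values, standard errors and intervals combine the spread between these cultures with a prior variance taken from other genes of similar level. They are therefore not the spread of 1 gene between its own cultures. Without the trend in that prior, the adjusted p in limma was 0.0026 for *Mest* and 0.322 for *Plagl1*. The spread between cultures may be technical in part.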

Additional observations from a re-analysis of the deposited data

How the results depend on the processing

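The fold change of *Mest* kept its direction and its call under all 20 alternatives. The count of the 7 imprinted genes that were lower was 2 in the reported fit and became 1 with a pseudocount of 0.01, without a variance trend, with a robust prior variance, and in DESeq2 with or without the block, each time through *Plagl1*, while upper-quartile scaling gave 3. Leaving out each library gave 1 to 2, and 1 to 2 past the log2 fold threshold, the 2 being reached without vehicle 1 through *Peg3*, a gene of at most 1 read. The count of the 7 genes that were higher was 0 throughout. Over all genes, 2040 were higher and 1970 lower. Without a variance trend these became 873 and 760, leaving out each library gave 1304 to 1585 and 1058 to 1456, and DESeq2 with the block gave 1254 lower. On the recovered reads, edgeR called 2219 higher and 2108 lower, and DESeq2 1904 and 1730. With upper-quartile scaling 1349 genes were higher and 2595 lower (34.2% of calls higher, against 50.9%), and with the same total 1703 and 2521 (40.3%). These scalings moved the median of all genes by -0.07 and -0.04 on the log2 scale.

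For the other imprinted genes, the 4 higher became 1 without a trend and 2 with upper-quartile scaling, and ran from 1 to 4 over the alternatives. The 5 lower became 0 without a trend, 3 in DESeq2 with the block and 1 to 4 on leaving out each library. Their count rose to 7 with upper-quartile scaling and in edgeR with the block, and ran from 0 to 7 over the alternatives. The log2 difference changed sign for *Igf2r* (-0.00097, adjusted p = 0.995 in limma) and *Grb10* (-0.0486) under quantile normalization, for *Grb10* with upper-quartile scaling (-0.0234), and without corticosterone 3 for *H19* and *Pon2*, which ran from -0.0360 to 0.204 and from -0.0652 to 0.0170 on leaving out each library. The causes of these moves were not tested. Of the single-gene values under the alternatives, 314 kept direction and side of the threshold, 5 changed direction, 46 lost the call and 12 gained it.

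With the replicate number as a block, limma placed 2012 genes higher and 1893 lower, 0 and 2 of the 7 genes, and 4 and 6 of the other imprinted genes. In 1 of 6 libraries the best correlation was with the library of its own number. The comparisons of *Dlk1* with *Meg3* and of *H19* with *Igf2* were not run, the former because neither gene was analysed here and the latter because *Igf2* had no reads in some libraries. Depth limits *Peg3*, *Igf2*, *Ascl2*, *Kcnq1*, *Cdkn1c*, *Calcr*, *Rian*, *Mirg* and *Mir335*, where a change could not be seen.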
